A study of Mus musculus with 12 samples.

Results

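Small nucleolar RNAs (snoRNAs) and small Cajal body RNAs (scaRNAs) were taken as all genes of the deposited table whose symbol begins with Snord, Snora or Scarna, which gave 150 of 55450 genes. There were 99 Snord genes, 42 Snora genes and 9 Scarna genes. Total RNA, depleted of ribosomal RNA, was sequenced from 2 tissues, brain and liver, of males. The mice were 7 to 9 weeks old and either wild type or without both copies of Vaultrc5, a gene for a vault RNA (a small RNA of the vault particle). Each of the 4 groups had 3 libraries: wild-type brain, Vaultrc5-/- brain, wild-type liver and Vaultrc5-/- liver. The titles call the controls flx and the genotype labels call them wild type. Nothing in the labels says that the libraries of a group came from separate animals, so p-values measure only the spread between these libraries. The series asked whether mice need Vaultrc5, and the comparisons here show what the snoRNAs and scaRNAs did with and without it and in the 2 tissues.

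SnoRNAs guide enzymes to chosen bases of other RNAs. C/D box snoRNAs (Snord) carry the short C and D boxes near their ends and position fibrillarin (Fbl), which methylates riboses of ribosomal RNA. H/ACA snoRNAs (Snora) end shortly after an ACA triplet and position dyskerin (Dkc1), which converts uridine to pseudouridine, while a few members of both families serve in the processing of ribosomal precursors. ScaRNAs (Scarna) gather in Cajal bodies and guide the same reactions on spliceosomal small nuclear RNAs (snRNAs), and some join both box types in a single molecule. Most mammalian snoRNAs lie in introns of host genes and are released when the spliced intron is opened and trimmed.

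The sequences below belong to members described in the results, among them Snord15a with only 139 counts over all libraries and Scarna2, which serves as a reference, together with a copy of the imprinted Snord116 cluster, whose members were almost without counts. They are GENCODE M21 transcripts on GRCm38, on the strand of the RNA and 5′ to 3′, with T for U. Capitals mark the letters TGATGA (C box) within the first 20 bases and CTGA (D box) within the last 15 bases of Snord and Scarna members, and ACA within the last 8 bases of Snora and Scarna members. Scarna6 held TGATGA and CTGA and Scarna13 held ACA. Scarna10 is shown by its last 150 bases of 325 and Scarna2 by its last 150 of 414; both ends held CTGA, and the 5′ windows lie outside these stretches.
Snord17: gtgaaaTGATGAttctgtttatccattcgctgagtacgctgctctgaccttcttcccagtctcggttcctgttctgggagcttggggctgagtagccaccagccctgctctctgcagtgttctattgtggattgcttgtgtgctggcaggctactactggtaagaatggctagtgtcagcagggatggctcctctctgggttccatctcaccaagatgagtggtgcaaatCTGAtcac
Snord15a: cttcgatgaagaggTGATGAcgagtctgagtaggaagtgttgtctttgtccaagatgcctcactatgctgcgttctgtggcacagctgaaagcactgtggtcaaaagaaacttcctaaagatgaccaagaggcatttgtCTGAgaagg
Snord15b: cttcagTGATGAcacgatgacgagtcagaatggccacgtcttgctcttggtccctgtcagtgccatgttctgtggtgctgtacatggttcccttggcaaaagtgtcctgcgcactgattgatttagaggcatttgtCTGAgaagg
Snora73a: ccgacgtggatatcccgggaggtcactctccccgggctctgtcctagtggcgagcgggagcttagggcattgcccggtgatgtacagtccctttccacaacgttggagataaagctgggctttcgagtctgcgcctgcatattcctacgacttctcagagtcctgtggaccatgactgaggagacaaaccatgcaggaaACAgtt
Snora73b: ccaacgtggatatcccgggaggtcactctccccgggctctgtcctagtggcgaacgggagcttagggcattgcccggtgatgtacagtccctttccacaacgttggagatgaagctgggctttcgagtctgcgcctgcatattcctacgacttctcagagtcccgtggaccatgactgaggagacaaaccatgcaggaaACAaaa
Snora23: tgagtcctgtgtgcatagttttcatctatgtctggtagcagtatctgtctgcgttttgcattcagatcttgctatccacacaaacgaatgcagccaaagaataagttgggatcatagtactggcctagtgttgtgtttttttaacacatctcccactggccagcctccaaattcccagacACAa
Scarna6: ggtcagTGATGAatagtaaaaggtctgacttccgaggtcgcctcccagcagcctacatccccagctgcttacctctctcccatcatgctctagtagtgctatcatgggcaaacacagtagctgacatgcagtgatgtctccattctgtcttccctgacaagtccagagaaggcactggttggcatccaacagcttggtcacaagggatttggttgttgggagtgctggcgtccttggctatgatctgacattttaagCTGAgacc
Scarna13: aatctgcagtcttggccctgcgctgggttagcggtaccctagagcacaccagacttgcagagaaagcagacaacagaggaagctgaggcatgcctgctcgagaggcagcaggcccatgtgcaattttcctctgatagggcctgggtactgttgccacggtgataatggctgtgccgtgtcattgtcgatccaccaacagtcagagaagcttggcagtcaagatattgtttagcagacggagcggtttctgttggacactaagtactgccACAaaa
Snord116l1: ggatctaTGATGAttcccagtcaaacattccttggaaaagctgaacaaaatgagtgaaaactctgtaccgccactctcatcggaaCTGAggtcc
Scarna10 3′ end: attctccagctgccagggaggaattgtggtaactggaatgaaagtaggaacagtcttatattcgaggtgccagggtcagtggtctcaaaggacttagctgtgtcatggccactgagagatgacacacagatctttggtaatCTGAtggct
Scarna2 3′ end: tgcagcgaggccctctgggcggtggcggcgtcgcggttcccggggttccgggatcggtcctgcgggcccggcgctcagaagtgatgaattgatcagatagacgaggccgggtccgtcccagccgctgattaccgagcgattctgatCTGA

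Snord17 lies at chr2:144265979-144266216 (minus strand) inside Snx5, and its 238 bases make it the longest Snord member with counts in every library. Snord15a (chr7:99482785-99482932, minus strand) and Snord15b (chr7:99479563-99479707, minus strand) both lie inside Rps3, a ribosomal protein gene, and were identical at 101 of 154 alignment columns (65.6%). Snora73a (chr4:132352775-132352979, minus strand) and Snora73b (chr4:132352322-132352526, minus strand) lie inside Rcc1 and Snhg3 and were identical at 198 of 205 columns (96.6%). The counts of Snora73a were fractional in all 12 libraries and became whole in 11 when those of Snhg3 were added; together with those of Snora73b they were whole in 1. Snora23 (chr7:110046364-110046547, plus strand) lies inside Ipo7, Scarna6 (chr1:87784556-87784820, plus strand) inside Atg16l1 and Scarna13 (chr12:105031075-105031349, minus strand) inside Snhg10. The printed end of Scarna10 is chr6:125186359-125186508 (minus strand), and that gene overlaps exons of Ncapd2 and Gm28967. The printed end of Scarna2 is chr3:108554338-108554487 (minus strand), where no other gene overlaps it.

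The box letters followed the class names. TGATGA was found in the 5′ window of 70 of 99 Snord members (70.7%), of 0 of 42 Snora members and of 4 of 9 Scarna members. CTGA was found in the 3′ window of 92 Snord members (92.9%), 3 Snora members and 5 Scarna members. ACA was found in the 3′ window of 40 of 42 Snora members (95.2%), 7 Snord members and 4 Scarna members. Over all 1559 snoRNA and scaRNA genes of the annotation, the shares were 21.3% for TGATGA, 30.9% for CTGA and 47.5% for ACA. The search used the RNA's own strand only, and the windows for CTGA and ACA overlap. The 12 Snord members that reached 3 counts in a library held TGATGA in 8 cases (66.7%), against 62 of the 87 that did not (71.3%).

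Most of these RNAs gave few or no reads, and the long ones held nearly all counts. No count in any library was recorded for 78 of the 150 members, 72 had a count somewhere, and 39 reached 3 counts in at least 1 library, but only 13 did so in all 12. A count of 0 allows up to 3 counts, which is 0.110 to 0.202 CPM (counts scaled to the library total) in these libraries, so that low levels were not detectable. A count was recorded for 48.0% of the members and for 59.5% of all genes of the table. By class, 3 counts in a library were reached by 12 of 99 Snord, 21 of 42 Snora and 6 of 9 Scarna members. The 9 Scarna members held 59.51% of all member counts, Snora members 21.61% and Snord members 18.88%.

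Longer members more often had counts. Of 89 members under 100 bases, 5 reached 3 counts in a library, and together the 89 held 0.53% of the member counts. Of 51 members of 100 to under 150 bases, 24 reached 3 counts, with 10.44% of the counts. All 3 members of 150 to under 200 bases and all 7 of 200 bases or more did so, and the 7 longest held 77.71% of the counts. Spearman's correlation of length with summed counts was 0.74 over the 150 members, a description of genes that share the same libraries. The median GC content was 50.7% in the 39 members that reached 3 counts and 44.7% in the other 111. Other snoRNA and scaRNA genes of the annotation, outside the name rule, reached 3 counts in 105 of 1409 cases (7.5%).

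**Figure D1:**
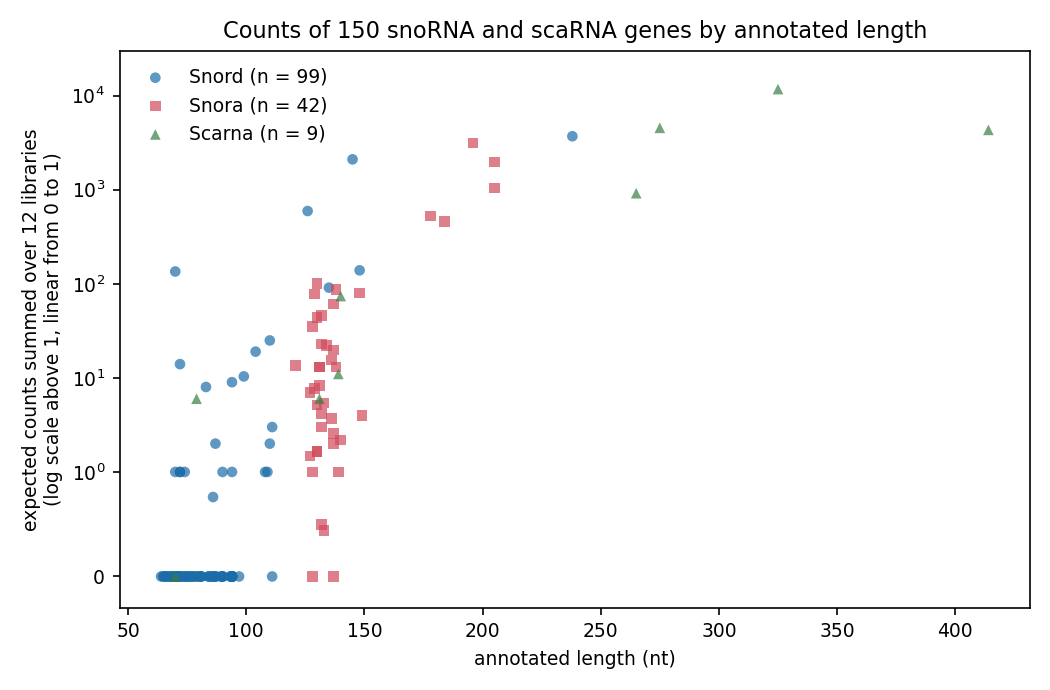
Expected counts summed over 12 libraries (log axis above 1, linear from 0 to 1) against annotated length in nucleotides, with a point for each of the 150 genes, coloured by class. The 7 genes of 200 bases or more stand at the top right, and most Snord genes, under 100 bases, lie at 0.

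Several well known groups were almost without reads. The Snord116 genes, C/D snoRNAs of the imprinted Prader-Willi region that are made in neurons, had 17 copies with 4 distinct sequences, of which 16 copies were at 0 in all 12 libraries and the family summed to 1 count. Snord64 and Snord107 of the same region and Snora35, which lies in a serotonin receptor gene, were at 0 in all brain and liver libraries. Of the 4 snoRNAs of Rpl13a, Snord33 was at 0 throughout, Snord34 and Snord35a had 1 count each, and Snord32a reached at most 3. Snord47, Snord78 and both Snord80 genes, which lie in Gas5, were at 0 in all libraries. A count of 0 does not show that these RNAs are absent.

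Among the detected members, Scarna10 was the most abundant per length in brain and Snord17 in liver. Mean CPM per kilobase was taken over the 6 libraries of a tissue, both genotypes together, with CPM on TMM effective library sizes from here on. It was 240.6 for Scarna10 in brain, followed by Snora74a (69.88), Scarna13 (66.99), Snord15b (60.3) and Scarna2 (43.97). In liver the order was Snord17 (91.53), Scarna13 (66.97), Snora74a (58.13), Snord15b (56.9) and Snora73b (48.57), with Scarna10 at 35.29. The order was not the same in each genotype. In knockout liver Snord15b (45.3) lay above Snora74a (44.2), and in knockout brain Scarna13 (69.8) lay above Snora74a (64.9). Scarna10 is a guide for the U5 snRNA and Scarna2 is a methylation guide for the U2 snRNA that has its own gene. Neighbours in the order lay close: Scarna13 had a brain level of 17.7 ± 1.20 CPM (wild type) and 19.2 ± 2.27 CPM (knockout), and a liver level of 19.9 ± 2.18 and 16.9 ± 2.90 CPM (SD, n = 3 each).

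The smaller scaRNAs were rare. Scarna6 stood at 3.74 ± 0.22 CPM in wild-type brain and 4.47 ± 0.49 CPM in wild-type liver (SD, n = 3 each). Scarna3a was at 0.457 ± 0.227 CPM in wild-type brain and 0.158 ± 0.090 CPM in wild-type liver, and Scarna3b, whose sequence was 85.7% identical to it, was at 0.057 ± 0.099 and 0.052 ± 0.050 CPM. Those Scarna3a levels rest on 15, 12 and 5 counts in brain and on 2, 2 and 5 in liver. Snord118 (the U8 RNA, needed for large-subunit rRNA processing) had 13, 1 and 8 counts in wild-type brain and 15, 15 and 8 in wild-type liver. Snord22 (the U22 RNA, needed for small-subunit rRNA maturation) was at 2.40 ± 0.513 CPM in wild-type brain and 3.15 ± 0.974 CPM in wild-type liver, and Snord104, the best counted member under 100 bases, at 0.444 ± 0.206 and 1.08 ± 0.871 CPM (SD, n = 3 each).

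**Figure D2:**
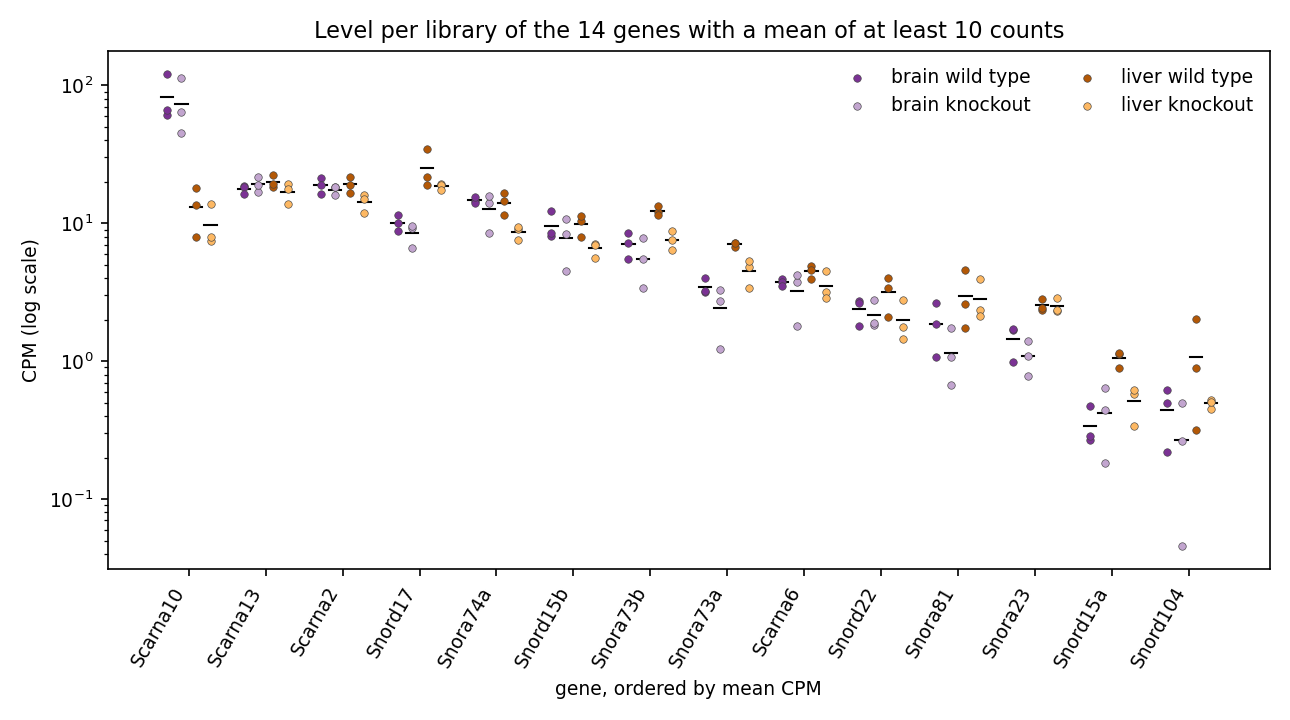
CPM (log axis) of the 14 genes with a mean of at least 10 counts over all libraries, ordered by mean level, with a point for each library and a line at the mean of each group of 3. Scarna10 lies far higher in brain than in liver, and Snord17 and Snora73a lie higher in liver within each genotype.

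The label and the depth of the libraries were checked before the comparisons. Vaultrc5 had 4, 1 and 4 counts in wild-type brain, 33, 39 and 48 in wild-type liver and 0 in all 6 knockout libraries, which fits the genotype labels. Library totals lay between 14844971 and 18567381 counts for brain and between 23247449 and 27155480 for liver. Summed hepatocyte markers (5 genes) lay at 0.3 to 2.2 CPM in brain and 63167.4 to 95519.7 CPM in liver, and neuron markers (5 genes) at 3065.2 to 4099.5 CPM in brain and 26.7 to 35.4 CPM in liver. Knockout brain replicate 3 stood apart: its 1383 snRNA genes summed to 834.3 CPM, against 1522.8 to 2272.8 CPM in the other 5 brain libraries, and it was the lowest of the 6 brain libraries for 11 of 13 members with a mean of at least 10 counts. In bulk tissue, fewer cells of a type and less RNA per cell cannot be told apart.

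In wild-type mice, brain held far more Scarna10 than liver, while liver held more Snord17, Snora73a, Snora73b and Snora23. Of 16 tested members, 7 were called (edgeR quasi-likelihood F-test, adjusted p under 0.05): 2 higher in brain, where 43.9% of all tested genes were, and 5 higher in liver, where 34.7% of all tested genes were. Of the 7, Snord15a passed the low-count filter only through liver and Snora34 only through brain, the tissue where each was high, so that their calls are only a description; each of the other 5 passed through either tissue alone. The median log2 fold change, brain over liver, was -0.54 for the members and 0.21 for all genes. The directions depend on the scaling: with library totals in place of TMM the median of all genes rose to 1.05, 7 members were called higher in brain (61.7% of all tested genes) and 0 higher in liver (21.2%), and Snora23 and Snora73b lay at 0.04 and 0.05.

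Scarna10 was at 120.3, 61.3 and 66.0 CPM in wild-type brain and at 18.0, 13.6 and 7.96 CPM in wild-type liver. Every brain library was above every liver library, also in the knockout (112.6, 64.2 and 44.8 CPM in brain against 7.41, 7.95 and 13.9 CPM in liver). The log2 fold change, brain over liver, was 2.65 ± 0.37 (SE; edgeR adjusted p = 0.000291) in the wild type and 2.91 ± 0.40 (SE; edgeR adjusted p = 0.000336) in the knockout. Its counts were fractional in all 12 libraries and became whole in 12 of 12 when those of Ncapd2 and Gm28967 were added, so reads were divided among these overlapping genes. The sum of the 3 genes was 197.1 ± 66.23 CPM in wild-type brain and 51.7 ± 3.88 CPM in wild-type liver, 195.8 ± 25.58 and 46.1 ± 4.94 CPM in the knockout (SD, n = 3 each). The Scarna class as a whole summed to 123.3 ± 36.0 CPM in wild-type brain and 57.0 ± 7.9 CPM in wild-type liver, and without Scarna10 to 40.8 ± 3.2 and 43.8 ± 4.6 CPM, which overlap. Gm28967 by itself held more than Scarna10, at 96.5 ± 28.9 CPM in wild-type brain and 32.3 ± 3.01 CPM in wild-type liver (SD, n = 3 each). It was called higher in brain at 1.58 ± 0.21 (SE; edgeR adjusted p = 0.00023) in the wild type and at 1.74 ± 0.24 (SE; edgeR adjusted p = 0.000371) in the knockout. Ncapd2, a condensin gene, differed by 1.55 ± 0.20 (SE; edgeR adjusted p = 0.000219) in the wild type.

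Snord17 was at 11.6, 8.82 and 10.0 CPM in wild-type brain and at 18.9, 21.5 and 34.6 CPM in wild-type liver, with no overlap. The difference was -1.30 ± 0.24 on the log2 scale in the wild type (SE; edgeR adjusted p = 0.00151) and -1.14 ± 0.17 in the knockout (SE; edgeR adjusted p = 0.000412). Its host gene Snx5, a sorting nexin, differed by -0.12 ± 0.12 in the wild type (SE; edgeR adjusted p = 0.367). Snord15a, of which each wild-type brain library held 6 to 11 counts, differed by -1.61 ± 0.36, whereas Snord15b of the same host was at -0.04 ± 0.22 and Rps3 at -0.97 ± 0.11 (SE). Whether Snord15a and Snord15b differ from each other was not tested. Snord15b counts became whole in all 12 libraries only together with those of Rps3.

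Among the H/ACA members, Snora73a and Snora73b, the U17 RNAs that act in ribosomal precursor processing, were both called higher in wild-type liver. Snora73a was at 4.00, 3.19 and 3.23 CPM in brain and at 7.24, 6.72 and 7.21 CPM in liver, a difference of -1.02 ± 0.18 (SE; edgeR adjusted p = 0.00105). Snora73b differed by -0.80 ± 0.19 (SE; edgeR adjusted p = 0.00479) and Snora23 by -0.80 ± 0.29 (SE; edgeR adjusted p = 0.0376). Of their hosts, Rcc1 differed by -0.57, Snhg3 by -0.48 (not called) and Ipo7 by -0.32. Snora34, which passed the filter through brain alone, was called higher in brain at 1.33 ± 0.50 (SE; edgeR adjusted p = 0.0414), from 8, 16 and 14 counts against 6, 4 and 2, and this call was lost with DESeq2, with no filter and without any of 4 libraries (wild-type brain replicates 2 and 3, wild-type liver replicates 2 and 3). The Snora23 call was lost with no filter and without wild-type brain replicate 2 or any wild-type liver library. Scarna13, Scarna2, Scarna6 and Snora74a lay within 0.25 of 0 and were not called.

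In the knockout, brain against liver gave 4 calls among 12 tested members, 1 higher in brain (43.5% of all genes) and 3 higher in liver (35.2% of all genes). These were Scarna10, Snord17, Snora23 at -1.21 ± 0.30 (SE; edgeR adjusted p = 0.0068) and Snora81 at -1.28 ± 0.42 (SE; edgeR adjusted p = 0.0246). Snora81 shares an exon with Eif4a2 and its counts were fractional in 11 libraries; its call was lost without knockout brain replicate 2 or 3 or knockout liver replicate 3. With library totals, 6 members were called higher in brain (62.1% of all tested genes) and 0 higher in liver (20.6%). Both tissue comparisons use different libraries and no shared controls.

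Ratios between members of the same library do not depend on the scaling. The reference was Scarna2, chosen after its values were seen because its counts were whole and no gene overlapped it. The ratios depend instead on the level of Scarna2. With TMM it differed between brain and liver by -0.01 ± 0.16 (wild type) and 0.29 ± 0.15 (knockout, SE), and with library totals by 0.83 and 1.17. They are therefore no independent check of the directions found with TMM. Per Scarna2 count, the Scarna10 ratio lay between 2.788 and 6.14 in the 6 brain libraries and between 0.464 and 1.173 in the 6 from liver. The Snord17 ratio lay between 0.414 and 0.546 in brain, and between 0.989 and 2.082 in liver. Snora23, Snora73a and Snora73b also lay below liver in all brain libraries, at 0.049 to 0.090 against 0.112 to 0.199 for Snora23, 0.077 to 0.197 against 0.227 to 0.452 for Snora73a and 0.211 to 0.423 against 0.508 to 0.691 for Snora73b. The tissues overlapped for the other 8 of the 13 members.

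**Figure D3:**
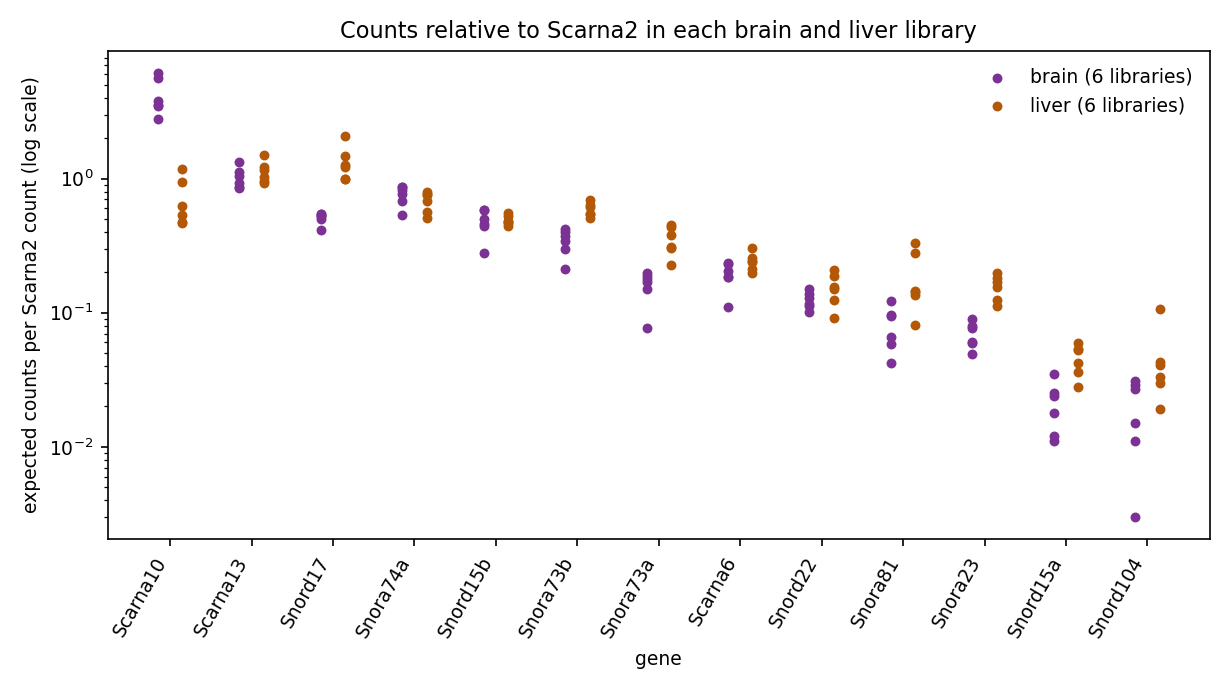
Expected counts of 13 genes divided by those of Scarna2 in the same library (log axis), with a point for each of 6 brain and 6 liver libraries. Scarna10 lies higher in brain and Snord17, Snora73a, Snora73b and Snora23 lie higher in liver, without overlap.

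In liver, the snoRNAs and scaRNAs stood lower in Vaultrc5-/- than in wild-type mice as a group, but no single member passed the test. Summed over all members, wild-type livers held 141.6, 146.8 and 136.0 CPM and knockout livers 107.2, 96.6 and 103.1 CPM, so the groups did not overlap and the knockout mean was 0.72 of the wild-type mean. The Snord sum was 41.4 ± 4.5 CPM for wild-type and 28.9 ± 2.2 CPM for knockout liver, the Snora sum 43.1 ± 1.6 and 28.8 ± 3.2 CPM, and the Scarna sum 57.0 ± 7.9 and 44.6 ± 3.0 CPM (SD, n = 3 each). No class overlapped between the genotypes. With members that had a fractional count in any library left out, the Snora genotypes overlapped, at 4.90, 5.33 and 5.66 CPM in the wild type and 5.37, 4.17 and 4.26 CPM in the knockout, and the log2 ratio of the means went from -0.58 to -0.20. The sum over the 122 members that remained was 68.69, 78.2 and 81.79 CPM in wild-type liver and 64.84, 57.43 and 55.48 CPM in the knockout, without overlap. These sums are described without a test. Those without fractional members also leave out Snora73b, whose counts were fractional in wild-type brain alone and whole in every liver library. Its liver mean was 12.3 CPM for wild-type and 7.58 CPM for knockout mice. In every liver library it held more than the Snora members that remained. The Snora overlap and the -0.20 therefore do not describe all Snora members with whole liver counts.

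Of 15 tested members in liver, 0 were called by the edgeR quasi-likelihood F-test (0.0% of all genes) or by DESeq2, and 6 had an unadjusted p under 0.05, which 3.5% of all genes had. The smallest edgeR adjusted p was 0.992 among the members and 0.333 among all 15329 genes. This F-test thus called no gene of the table, not even Vaultrc5 with its 33, 39 and 48 counts against 0. The lack of calls therefore does not show that the members were unchanged. The median log2 fold change of the 15 was -0.44, against 0.01 for all genes, and all 15 were negative. Of 16 members with at least 10 counts on average over the 6 libraries, all had a lower mean in the knockout, as had 50.7% of all genes with that minimum. In 6 every knockout library was below every wild-type library, as in 5.43% of all genes. Both filters can be passed through the wild-type level: Snord15a, Snord118, Snora31 and Snord104 averaged under 10 counts in the knockout. These counts and the median only describe the members that passed. Of 12 members with at least 10 counts on average in the knockout libraries alone, a filter chosen after seeing the data, 12 had a lower mean in the knockout (49.5% of all genes so filtered) and 5 had every knockout library below every wild-type library (5.25%); Snord15a was the member lost. Of the 6 members, Snora73a, Snora73b, Snora74a and Snord15b carried fractional counts in some brain or liver library. Among the 8 of 16 without such counts in any library, 8 had a lower mean in the knockout and 2, Scarna2 and Snord15a, had no overlap. Snora73b and Snord104 were left out there for fractional counts in wild-type brain alone, and their counts were whole in every liver library. With library totals the 6 became 7, beside 6.92% of all genes. Without 1 library the number ranged from 6 to 11 and the share of all genes from 9.08% to 11.7%: it was 11 (11.7% of all genes) without knockout replicate 1 and 10 (10.3%) without wild-type replicate 3.

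The 3 members with the smallest unadjusted p-values were Snora73b, Snora74a and Snord15b. Snora73b was at 12.2, 13.4 and 11.5 CPM in wild-type liver and at 8.74, 7.55 and 6.45 CPM in the knockout, a log2 fold change of -0.70 ± 0.14 (SE; edgeR adjusted p = 0.992). Snora74a (the U19 RNA) was at 14.4, 16.6 and 11.4 CPM against 9.07, 7.58 and 9.34 CPM, at -0.70 ± 0.17 (SE; edgeR adjusted p = 0.992). Its counts were fractional in all libraries and became whole in 4 of 12 when those of the overlapping AC121821.1 and Gm28285 were added. Snord15b was at 10.4, 11.4 and 7.98 CPM against 7.12, 6.96 and 5.64 CPM, at -0.59 ± 0.18 (SE; edgeR adjusted p = 0.992). In each of these the libraries of the genotypes did not overlap. The other members without overlap were Snora73a (-0.64 ± 0.20), Snord15a (-1.03 ± 0.36) and Scarna2 (-0.42 ± 0.15, SE).

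Hosts of these members were measured beside them. In liver, Rps3 differed by -0.10 ± 0.10, Rcc1 by -0.27 ± 0.16 and Snhg3 by 0.30 ± 0.35 (SE), none called. Scarna2 has no overlapping gene, and its counts were 337, 436 and 317 in the wild type against 303, 264 and 211 in the knockout. The other short RNAs of the table also lay lower: of 32 snRNA genes with a mean of at least 10 counts, 27 (84.4%) had a lower mean in the knockout, against 50.7% of all genes with that minimum, with a median of -0.16 on the log2 scale. Of 29 snoRNA genes outside the name rule, 18 (62.1%) had a lower mean, with a median of -0.18. Summed over all 1383 snRNA genes the genotypes overlapped, at 1130.9, 1068.4 and 1404.6 CPM in wild-type and 1127.6, 999.2 and 1112.4 CPM in knockout liver. The transcripts under 250 bases that are not members had a median of -0.16, against 0.00 for those of 1000 bases and over. Their part in the result was not tested. Summed markers of Kupffer cells and microglia (5 genes, none under 3 counts in every liver library) were at 115.1, 159.0 and 136.1 CPM in wild-type and at 163.1, 280.1 and 134.5 CPM in knockout liver, so that the highest value was that of knockout replicate 2. Of these genes, P2ry12 (1.18, 1.45 and 1.00 CPM against 2.16, 3.95 and 1.68 CPM) was higher in every knockout than in every wild-type liver, as were 4.2% of all genes with a mean of at least 10 counts. Clec4f, Csf1r, Vsig4 and Cx3cr1 overlapped. Summed red cell markers (5 genes, none under 3 counts in every liver library) were at 151.4, 117.5 and 107.5 CPM in wild-type and at 163.0, 159.1 and 135.6 CPM in knockout liver, which overlap. Among them the haemoglobin genes Hbb-bs (16.4, 6.64 and 14.4 CPM against 31.5, 22.1 and 19.4 CPM) and Hba-a2 (0.12, 0.18 and 0.64 CPM against 1.75, 1.42 and 2.19 CPM) were higher in each knockout library, without overlap. Counts of Hbb-bs, Hba-a2 and Hba-a1 were fractional in every liver library, and Hba-a2 held only 2.16 to 39.1 counts. Hba-a1 overlapped, with 12.72 CPM in wild-type replicate 1 and 11.37 CPM in knockout replicate 2. Whether reads were divided between Hba-a1 and Hba-a2 was not tested, so Hba-a2 alone shows no difference in level. The part of both marker lists in the result was not tested.

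**Figure D4:**
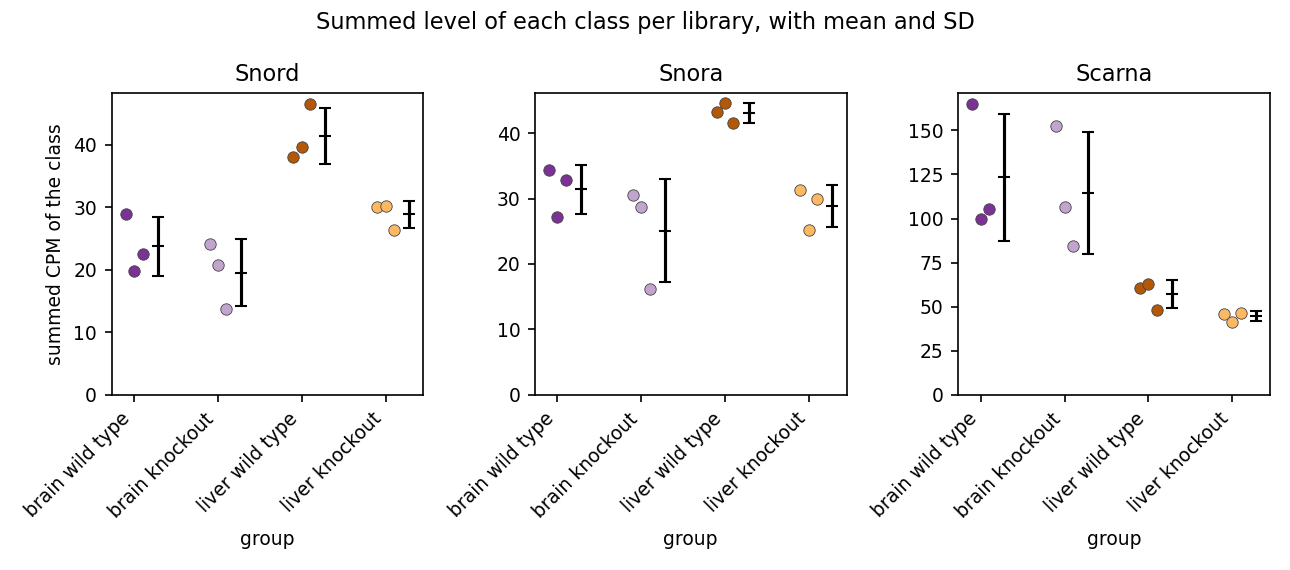
Summed CPM of the Snord, Snora and Scarna genes in each library, with the mean and SD of each group of 3 beside the points. In liver the knockout points lie below the wild-type points in each class, and in brain they overlap.

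In brain the genotypes overlapped for each of the 13 members with a mean of at least 10 counts. Of 15 tested members, 0 were called by the edgeR quasi-likelihood F-test (0.0% of all genes) or by DESeq2, and 0 had an unadjusted p under 0.05, against 0.675% of all genes. Summed over all members, wild-type brains held 228.2, 146.9 and 160.6 CPM and knockout brains 207.1, 155.9 and 114.1 CPM. The smallest unadjusted p-values were those of Snora73a (-0.53 ± 0.35, SE; edgeR adjusted p = 1), Snora81 (-0.68 ± 0.45, SE; edgeR adjusted p = 1) and Snord17 (-0.27 ± 0.18, SE; edgeR adjusted p = 1). Of these 13 members, 12 had a lower mean in the knockout, all but Scarna13, against 48.2% of all genes with that minimum. In 0 was every knockout library below every wild-type library, against 2.12% of all genes. With the filter on the knockout libraries alone these were 11 of 12 (47.1% of all genes) and 0 (2.0% of all genes). The count of lower means rests on the library that stood apart. Without knockout replicate 3, 8 of 13 were lower, against 47.9% of all genes, and the median of the 13 was -0.05 in place of -0.21. The snRNA genes moved alike, with 29 of 32 lower and a median of -0.40, which became -0.07 without that library.

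The difference of the genotype effects between tissues was tested over all 12 libraries. Of 18 tested members, 0 were called (0.0% of all genes; edgeR quasi-likelihood F-test), and 0 had an unadjusted p under 0.05, against 2.43% of all genes. The effect in liver minus that in brain was -1.33 ± 0.65 for Snord15a, -0.36 ± 0.20 for Scarna13 and -0.50 ± 0.30 for Snora74a (SE; edgeR adjusted p = 1 for each), the members with the smallest unadjusted p-values. It had the opposite sign for Snord118 (1.80 ± 1.19) and Snora34 (1.17 ± 0.78, SE; edgeR adjusted p = 1 for both), which were named after their values were seen. The liver and brain results are therefore not shown to differ.

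**Figure D5:**
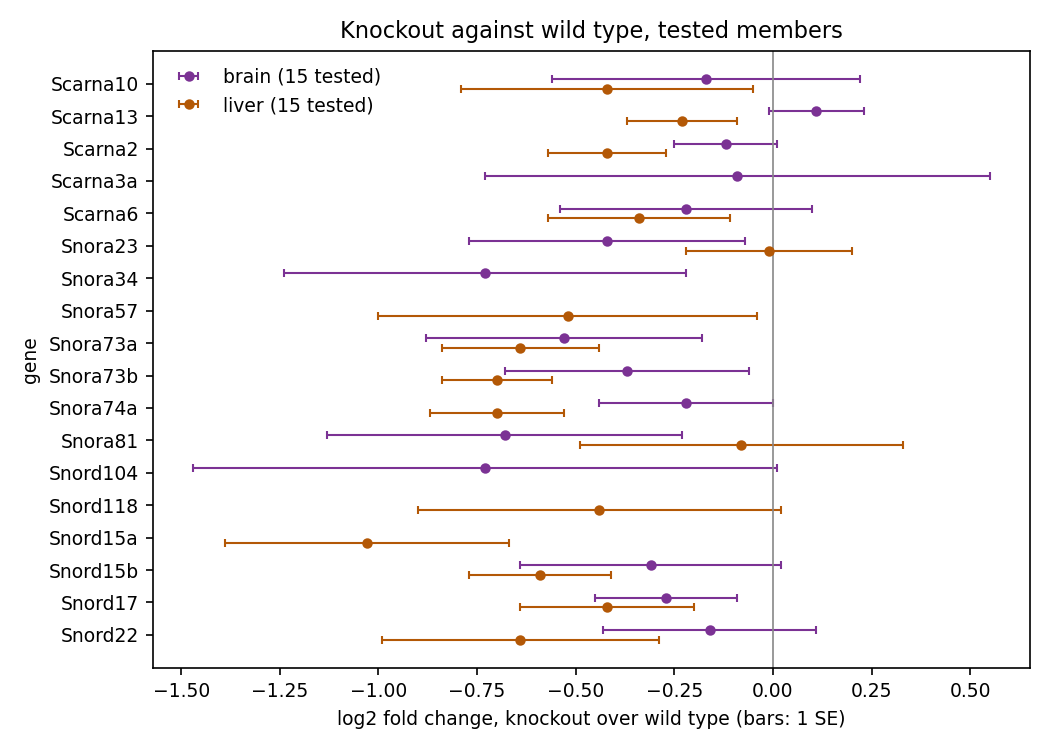
Log2 fold change, knockout over wild type, of each tested member in brain and in liver, with bars of 1 SE. All 15 liver points and 14 of 15 brain points lie at or below 0, and none was called.

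The proteins that bind, assemble and trim these RNAs were examined as lists chosen with earlier results known. None of the 9 core proteins of the snoRNA particles (among them Fbl, Nop56, Nop58, Dkc1 and Gar1) was called between genotypes in brain, and of 8 tested in liver none was, with medians of 0.06 and 0.00. Between wild-type tissues 5 of the 9 were called higher in brain and 4 higher in liver, as were 43.9% and 34.7% of all tested genes. None of 9 assembly factors, 7 Cajal body and trafficking proteins (such as coilin, Coil, and Wrap53) or 5 release and end processing enzymes (such as the debranching enzyme Dbr1) was called between genotypes in either tissue. Between wild-type tissues the assembly factors gave 4 calls higher in brain and 1 in liver, the Cajal body list 2 and 0, and the processing enzymes 0 and 3, beside the same 43.9% and 34.7%. Terc, the telomerase RNA, which is an H/ACA RNA outside the name rule, had 0, 2 and 3 counts in wild-type brain and 25, 35 and 19 in wild-type liver, against 16, 19 and 18 in knockout liver. The U3 genes, C/D RNAs named Rnu3, carried divided counts that moved between gene copies from library to library, and no difference is given for them.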

How the data were processed

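Ribosome-depleted, stranded total RNA of 12 libraries was sequenced as single-end reads, per the labels' protocols. Values are expected counts for each gene in each library as deposited by the authors, with no normalisation; between 4.62% and 5.34% of a library's values were not whole (tolerance 0.02). Per the submitters' processing notes, cutadapt and STAR were used with the mm10 build; the program that counted reads, and whether it used strand, are not given in the sources used here. All 55450 identifiers matched GENCODE M21.

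Counts were rounded and tested over the whole table in R 4.3.3 by the quasi-likelihood F-test of edgeR 4.0.16 (TMM, robust fit, filterByExpr with a minimum count of 10 and total of 15, Benjamini-Hochberg adjusted p under 0.05); SE is the absolute log2 fold change over the square root of F. Each comparison used its own 6 libraries and the interaction all 12. Scripts were tested on simulated data. Between genotypes, a true absolute log2 fold change of 1 was called for 60.6% of changed genes in liver and 31.8% in brain. Intervals of counting error do not cover PCR duplicates. Replicate pairs differed beyond sampling noise (chi-square 27.2 to 227.7 times its degrees of freedom). Replicate numbers pair the liver libraries (correlations of deviations 0.29, 0.32 and 0.37) by the rule used here, but not the brain libraries (0.71, 0.69 and -0.03); with a replicate block, 0 members were called in liver. Alternatives were DESeq2 1.42.0 (size factors and Wald test), library totals, other filters, the block, all libraries in a single fit, members with fractional counts or the most abundant left out, and each library left out.

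Members named are, by rule, the 5 of each class highest per length in a tissue, up to 4 called members per direction, class and tissue comparison without overlap, the 3 with the smallest p in each knockout comparison, detected Scarna members and the fixed lists; others were named after their values were seen. Members and lists were chosen with earlier results of these data known. Markers and related RNAs served as checks.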

Additional observations from a re-analysis of the deposited data

How the results depend on the processing

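No member was called between genotypes, or for the difference of genotype effects, under any alternative or without any library. The number of liver members below every wild-type library ran from 6 to 11 and of brain members from 0 to 4 over the libraries left out (9.08% to 11.7% and 4.0% to 8.23% of all genes), an alternative chosen after seeing the data. With fractional members left out, also chosen after seeing the data, 2 of 8 liver members lay below every wild-type library (5.43% of all genes). A lower mean was found for 8 of 8 in liver (50.7% of all genes) and 5 of 6 in brain (48.2%). Snora73b, below every wild-type liver library, and Snord104 were left out although their liver counts were whole. The liver median of tested members was -0.65 with no filter and -0.65 to -0.46 over the libraries left out, and the interaction median -0.41 to -0.04. The liver log2 ratio of summed levels was -0.36 for all members and -0.20 for Snora with fractional members left out, and -0.67 for Snord without its most abundant member. The -0.36 and -0.20 also leave out Snora73b, whose liver counts were whole. For wild-type brain against liver, library totals gave 7 members higher in brain, 0 higher in liver and a median of 0.30; signs turned for Snora23 (0.04), Snord15b (0.81), Snora73b (0.05), Scarna2 (0.83), Scarna13 (0.67), Scarna6 (0.59), Snord22 (0.46) and Snora81 (0.14), and in the knockout for Snora73b (0.42) and Scarna6 (0.76). Members higher in brain became 1 of 16 with DESeq2 (all genes: 8219 of 18850), 1 of 61 with no filter (9543 of 30742) and 1 of 12 with a mean of at least 1 CPM (7321 of 16788). They also became 1 of 16 with the replicate block (8096 of 18850) and 1 of 8 with no fractional members (8274 of 18842). The last gave 3 of 8 higher in liver (6540 of 18842) and 4 called (14814). The median was -0.37 with no filter and -0.31 with the CPM filter. Over the libraries left out, higher in brain ran from 1 to 3 (all genes: 7996 to 8338 of 19406 to 19712) and the median from -0.93 to -0.24. In the knockout, library totals gave 6 of 12 members higher in brain (all genes: 11668 of 18785), 0 higher in liver (3871) and a median of 0.87. No filter gave 2 of 60 higher in brain (9336 of 30478), 5 higher in liver (6921) and 7 called (16257). All 12 libraries gave 3 of 18 higher in brain (8976 of 20141), 5 higher in liver (6890) and 8 called (15866). Without fractional members, 0 of 5 were higher in brain (8177 of 18778) and 2 were called (14787). Over the libraries left out, knockout members higher in brain ran from 1 to 3 (all genes: 7986 to 8173 of 19289 to 19638). Those higher in liver ran from 2 to 5 (all genes: 6267 to 6612). Tissue log2 ratios of summed levels in the wild type became 1.18, 0.04, 0.39 and 1.96 with library totals (all members, Snord, Snora, Scarna), -0.32, -0.27, -0.79 and -0.10 without the most abundant member of each class, and -0.45 (all), -1.27 (Snord) and -0.10 (Scarna) without fractional members. In the knockout they became 1.49, 0.30, 0.66 and 2.22; -0.03, 0.10, -0.70 and 0.22; and -0.18, -1.10, -0.78 and 0.22. The block also ended the calls of Snora34 (wild type) and Snora81 (knockout) and changed no other count of members beyond these; in these tissue comparisons the replicate numbers do not pair the libraries (correlations of deviations 0.05, 0.03 and 0.03 in the wild type, 0.03 for each number in the knockout). The cause of these changes was not tested. At this depth, members under 3 counts in every library were not detectable above what a count of 0 allows.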
